A study of Xenopus laevis with 6 samples.

Results

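At stage 12, late in gastrulation, 1721 accessible regions of Xenopus laevis ectoderm each covered 2 or more regions that the stage 10 list, from the start of gastrulation, gave as separate. They were chosen by position alone: a stage 12 interval on one of the 18 assembled chromosomes is called a joined region here when it overlaps, by at least 1 bp, 2 or more distinct stage 10 intervals. The joined regions are 3.13% of the 55045 stage 12 regions on chromosomes and 5.74% of the 29958 that overlap any stage 10 region. They take in 3510 of the 40211 stage 10 regions on chromosomes, or 8.73%. Because overlap chose them, the number joined and the presence of a filled gap are a description and not a finding.

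ATAC-seq reads come from cuts made by the Tn5 transposase, which reaches DNA where nucleosomes are absent or loosely held. Enhancers and promoters appear as such regions, and a short stretch of few insertions between neighbouring open sites is often a positioned nucleosome. Animal cap ectoderm is the tissue at the animal pole of the frog embryo. It forms epidermis when left to itself and, at early enough stages, can be turned to neural or mesodermal fates.

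The explants were cut at stage 9 from embryos for which the labels name no treatment or genotype, and were grown to stage 12 (late gastrula, 3 libraries) or stage 10 (early gastrula, 3 libraries), with 2 explants in each library. The 3 libraries of a stage are represented by one list, so no value belongs to a single library, no spread between replicates exists, and none of the differences between stages below has a test. On chromosomes the lists held 55045 regions of median width 569 bp at stage 12, and 40211 of median width 498 bp at stage 10. Read totals are not in the lists. The pileup, the number of reads stacked on a summit, was solved from the authors' fold enrichment and −log10 p and is given below as a multiple of the floor, the local background value that recurs most in each list (4.70 reads at stage 12 and 2.204 at stage 10). The ratio of these floors, 2.13, estimates how much deeper the stage 12 data are, and the part of depth in the joining was not tested. Percentages carry 95% Wilson intervals where a range is given, which cover counting error only. Positions are 1-based on the build xenLae2. No gene is named, since no annotation of that build was used here.

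Nearly all joined regions took in a pair. Of the 1721, 1651 (95.9%) covered 2 stage 10 regions, 68 covered 3 and 2 covered 4. Joining affected 5.74% of overlapping stage 12 regions, as given above. The opposite event, a stage 10 region that overlapped 2 or more stage 12 regions, was found 502 times, which is 1.61% of the 31237 stage 10 regions that overlap any stage 12 region. There were thus 3.43 joined regions for each divided one. With lists limited to equal length, from the top by −log10 p, which shortened only the stage 12 list, 1678 joined and 319 divided regions remained. Among regions with the authors' top score of 1000 in both lists there were 646 joined and 278 divided.

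How far apart 2 stage 10 neighbours lay went with their listing at stage 12. No pair of stage 10 regions lay closer than 95 bp, and no pair of stage 12 regions closer than 94 bp, while regions down to 73 bp wide were listed. Both lists therefore have a shortest gap, and 94 stage 10 gaps stood exactly at it. Among the 511 stage 10 pairs with a gap of at most 100 bp, 71.6% (67.6% to 75.4%) lay in one stage 12 region. The share was 37.3% (35.6% to 38.9%) of 3393 pairs with gaps over 100 and up to 200 bp, 8.91% of 999 pairs up to 300 bp and 4.34% of 1383 pairs up to 500 bp. Over 500 and up to 1000 bp it was 0.699% of 1861 pairs, or 13 gaps. In the next class, up to 2000 bp, 1 of 1547 pairs was joined, and none of 30499 pairs lying farther apart.

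**Figure D1:**
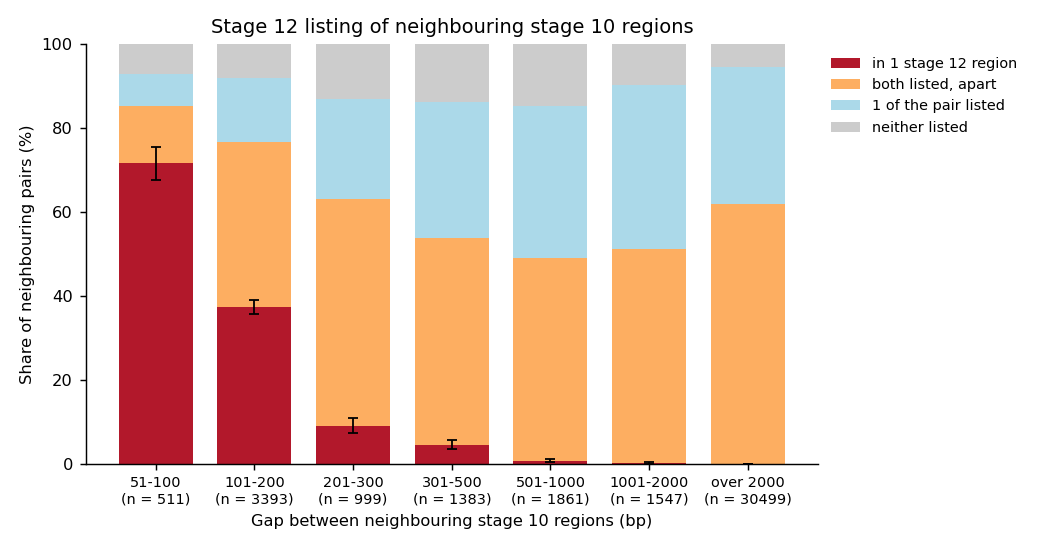
Share of neighbouring stage 10 regions (y axis, percent) by the gap between them (x axis, bp; n is the number of pairs) that lay in 1 stage 12 region, lay in separate stage 12 regions, or were listed in part or not at all at stage 12; black bars are 95% Wilson intervals of the lowest, red segment. The joined share is 71.6% at gaps up to 100 bp and 8.91% at gaps over 200 and up to 300 bp.

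The gaps that were filled, meaning that the stage 12 interval ran across them, were short. The lists give no signal between summits, so whether a filled gap was open along its length cannot be told. The 1721 joined regions held 1793 gaps, with a median of 112 bp (interquartile range 102 to 134 bp), which is 17 bp above the shortest gap in the stage 10 list. Of these gaps 20.4% were at most 100 bp, 83.1% at most 150 bp and 90.9% at most 200 bp. Of the rest, 163 gaps were wider than 200 bp, 74 were wider than 300 bp, 14 were wider than 500 bp, and the widest was 1233 bp. Together the gaps made up 243 kb, or 12.9% of the bases of the joined regions. In a typical joined region they took 11.9% of the width (interquartile range 9.28% to 16.1%).

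Most gaps were filled without a summit of their own. A summit is a local maximum that the authors' list gives within a region, and 164 of the 1793 gaps (9.15%, 7.90% to 10.6%) contained at least 1 stage 12 summit. Of those, 153 had 1 summit, 9 had 2, and single gaps had 3 and 5. The share with a summit rose with the width of the gap. It was 3.89% of the 1490 gaps up to 150 bp, 35.0% of the 303 wider ones, 75.7% of the 74 gaps over 300 bp, and 14 of 14 over 500 bp. A wider gap has more bases in which a summit can fall, so some rise is expected from length. Summits per kilobase were not computed by width of the gap, so how much of the rise goes with length was not tested. Gaps with a summit had a median of 211.5 bp and gaps without one a median of 111 bp. The widest gap without a summit was 493 bp.

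**Figure D2:**
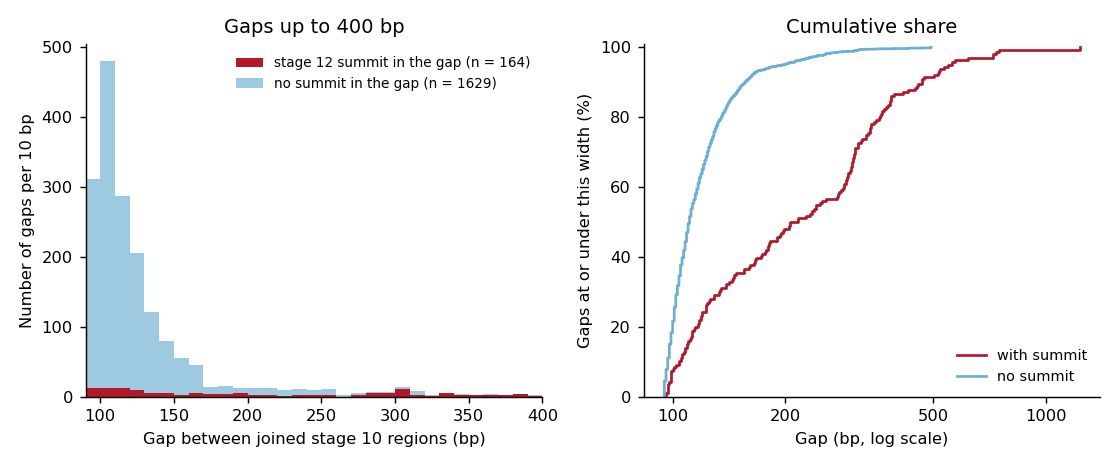
Left, number of gaps per 10 bp of gap width (x axis, bp, up to 400 bp) between stage 10 regions that lie in one stage 12 region, split by whether a stage 12 summit falls in the gap; right, the cumulative percentage of gaps against gap width on a log scale. Gaps without a summit crowd near the shortest gap of 95 bp, and gaps with one have a median of 211.5 bp.

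Summits in gaps were few and low beside those in the old regions. The places were set by the stage 10 list, and gaps are stretches not listed there. How much of the contrast follows from that choice was not tested. The joined regions carried 8600 stage 12 summits, of which 8139 (94.6%) lay in a stage 10 region, 179 (2.08%) in a gap and 282 (3.28%) beyond the outermost stage 10 regions. Per kilobase, gaps held 0.737 summits, the outer stretches 1.82 and the former stage 10 regions 5.49. Median pileup was 17.7 times the floor at gap summits (interquartile range 13.5 to 24.7), 18.1 times at outer summits and 37.4 times at summits in stage 10 regions. The authors' median fold enrichment was 3.44, 3.71 and 7.67 in the same order. A gap summit reached a median of 29.2% of the highest pileup in its region, and 100 of 179 ranked last in their region by −log10 p.

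**Figure D3:**
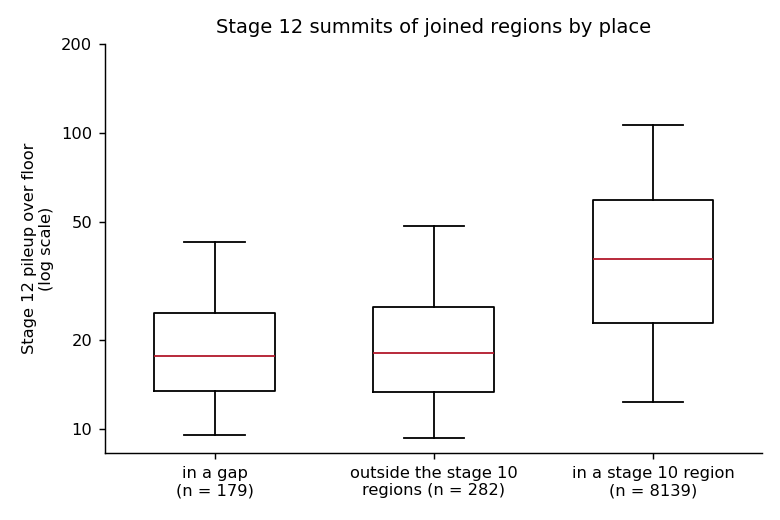
Stage 12 pileup as a multiple of the list's floor (y axis, log scale) at the stage 12 summits of joined regions, by where the summit lies. Boxes span the quartiles with the median in red, and whiskers run from the 5th to the 95th percentile. The medians are 17.7 in gaps, 18.1 outside the stage 10 regions and 37.4 within them. The places were set by the stage 10 list.

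The highest point of the joined region almost always stayed in an old region. The best stage 12 summit lay in a stage 10 region in 1715 of 1721 joined regions (99.7%), in a gap in 3 and in an outer stretch in 3. The former stage 10 regions made up 78.8% of the bases of joined regions. The matching share was not computed for other shared regions, so whether it is particular to joined regions was not tested. Of the 3 with their best summit in a gap, chosen here after their values were seen, the region on chromosome 6S, 81548912 to 81549920, is described below. The region on chromosome 9_10L, 83480456 to 83481492, reached 27.4 times the floor in a gap of 295 bp, against 19.1 times at stage 10 in the better of its 2 regions. The one on chromosome 2L, 170863184 to 170863633, reached 24.5 times the floor in a gap of 118 bp, against 59.0 times at stage 10, and was narrower (450 bp) than its stage 10 regions together (659 bp).

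The footprint of joined regions hardly widened. Their median width was 1049 bp at stage 12, against a summed width of 859 bp and a span, gap included, of 1008 bp for their stage 10 regions. The median ratio of the stage 12 width to the summed stage 10 width was 1.19 (interquartile range 1.10 to 1.35). The median ratio to the span was 1.02 (0.985 to 1.12). By median the outer edges moved outward by 5 bp on the left and 4 bp on the right. Both edges lay outward in 33.9% of joined regions and both inward in 10.7%, and 586 (34.1%) were narrower than the span at stage 10. The stage 12 width exceeded the span by a median of 18 bp, beside a median summed gap of 114 bp.

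With the gap counted in the stage 10 width, large width ratios were rarer in joined regions than in regions with 1 partner. The 27293 regions with exactly 1 partner in the other list had a median width ratio of 1.05 at stage 12 over stage 10, and 16.5% of them were at least 1.5 times as wide at stage 12. Of joined regions 14.5% (249) reached 1.5 times the summed stage 10 width. That sum leaves out the gap, so these shares are not like for like. Against the span, gap included, the 95th percentile of the ratio was 1.43, against 2.28 in regions with 1 partner. In bp, the 95th percentile of the change in width was 361 against 476. The stage 10 widths were not alike, with a median span of 1008 bp in joined regions and a median width of 593 bp in the others. A like shift of an edge gives a larger ratio in a narrower region, and the 2 groups were not compared at like width. At the other end, 169 joined regions (9.82%) were narrower than the sum of the stage 10 regions they overlapped, so that parts of those regions fell outside them.

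**Figure D4:**
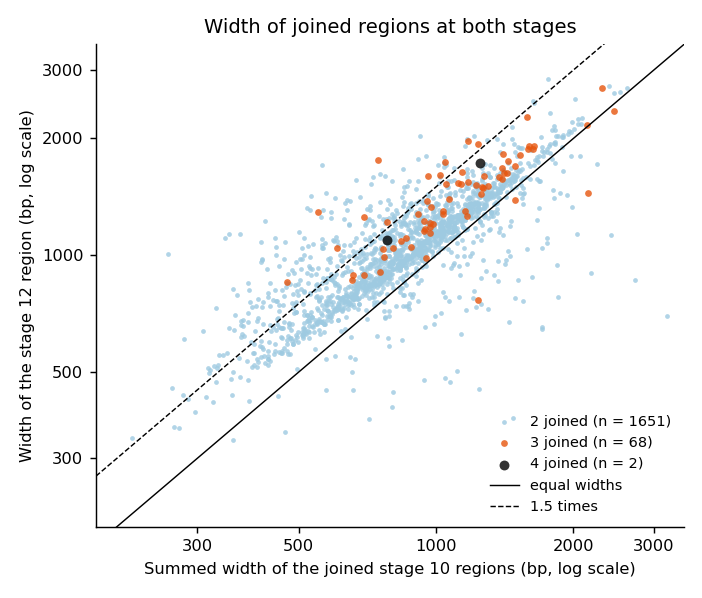
Width of each joined region at stage 12 (y axis, bp, log scale) against the summed width of its stage 10 regions (x axis, bp, log scale), coloured by the number joined; the solid line marks equal widths and the dashed line a ratio of 1.5. Most points lie between the lines, and the median ratio is 1.19.

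Wider gaps, which have more bases for a summit, held summits more often, while the outer footprint was alike at all gap widths. The 1420 joined regions with gaps of at most 150 bp had a median width ratio to the summed stage 10 width of 1.17, and 3.94% of them held a gap summit. For the 228 with a widest gap over 150 and up to 300 bp these values were 1.29 and 21.9%. For the 73 with a gap over 300 bp they were 1.55 and 78.1%. The summed width leaves out the gap, so that its ratio grows with the gap by construction. The median ratio to the span, gap included, was 1.02 in each of the 3 classes. In those 73 the gaps took a median of 35.2% of the stage 12 width. Their best summits stood at 50.6 times the floor by median, against 62.5 times for joined regions with gaps of at most 150 bp. Joined regions of 3 had a median stage 12 width of 1442 bp and a median summed gap of 230 bp, against 1038 bp and 112 bp for joined regions of 2.

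The 2 regions of a joined pair are described here by their order at stage 10, so a difference between them is fixed by the ordering. In the 1651 joined regions of 2, the higher stage 10 region, by −log10 p, had a median width of 489 bp and a pileup of 42.7 times the floor, and the lower one 307 bp and 28.6 times. By width, the narrower of the pair had a median of 254 bp and the wider 577 bp. The narrower one was at most 182 bp, the 10th percentile of all stage 10 widths, in 28.1% of pairs, against 10.1% of all stage 10 regions. The narrower of any pair is chosen as the smaller of 2, so these shares are not like for like. Pairs that stayed apart differed in the same way: at gaps of 95 to 150 bp the median widths were 571 and 252.5 bp in joined pairs, against 603 and 261 bp in pairs kept apart.

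The order within the pair was mostly kept. A stage 12 summit was present in both stage 10 regions of 1598 of the 1651 pairs (96.8%). In 1307 of the 1598 (81.8%, 79.8% to 83.6%) the region that was higher at stage 10 was also higher at stage 12. Over all joined regions, 81.3% had their best stage 12 summit in the highest of their stage 10 regions. The median ratio of pileups, higher over lower, was 1.54 at stage 12 in the stage 10 order and 1.37 at stage 10. Ordered at stage 12 in place of stage 10, it was 1.63 at stage 12.

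By median, both sides of the gap stood higher over the floor at stage 12. The ratio of stage 12 to stage 10 pileup, each over its floor, was taken in the 1598 pairs with a stage 12 summit in both regions. Its median was 1.37 in the higher region of the pair and 1.25 in the lower, with the order taken at stage 10. The 25th percentiles were 1.08 and 0.930, so some lower regions stood lower at stage 12. The share of pairs with both sides higher was not computed. With the order taken at stage 12 the medians were 1.47 and 1.16. The difference between them depends on which list sets the order, while both medians stay above 1. For the best summit of a joined region the median ratio was 1.42, and for regions with 1 partner it was 1.41. The best summit was higher over the floor at stage 12 in 83.1% of joined regions, beside a background of 77.3% in regions with 1 partner.

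Positions of summits carried over between the stages. Of the 8417 summits of the stage 10 regions that were joined, 84.5% had a stage 12 summit within 50 bp, and the median distance was 8 bp. In regions with 1 partner the share was 84.0% and the median 9 bp. Joined regions held 8600 summits at stage 12, or 5.00 each, against 8417 at stage 10, or 4.89 each. The number of summits was larger at stage 12 in 35.4% of joined regions, equal in 39.3% and smaller in 25.3%.

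Pairs that stayed apart show what joining looked like at equal distance. Of the stage 10 pairs with both regions listed at stage 12, 83.9% were joined at gaps of 95 to 100 bp (366 of 436), 71.3% above that and up to the median of 112 bp (539 of 756), 46.5% at wider gaps up to 150 bp (585 of 1258) and 23.9% at gaps over 150 and up to 200 bp (140 of 585). In the other direction, stage 12 pairs with both regions listed at stage 10 lay in one stage 10 region in 37.9% of cases at gaps of 94 to 100 bp, and in 31.4%, 16.1% and 9.34% of cases in the 3 wider classes of the same limits.

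Joined pairs had lower pileups at stage 10, by median, than pairs kept apart. At gaps of 95 to 150 bp, the lower region of a pair had a median stage 10 pileup of 29.0 times the floor in the 1490 joined pairs and 33.6 times in the 960 pairs kept apart. The higher region had 44.0 and 48.6 times. Their median gaps were not alike, at 108 bp in joined pairs and 123 bp in pairs kept apart. At gaps of 95 to 100 bp the lower region had 29.5 against 31.5 times. Above that and up to 112 bp it had 29.0 against 31.3 times, and at 113 to 150 bp 29.0 against 35.4 times. All pairs at gaps of 95 to 150 bp were divided into 4 classes of like size by the pileup of the lower region. From the lowest class to the highest, the joined share was 68.2%, 66.7%, 55.6% and 52.4%. The median gap was 112 bp in the lowest class and 116 bp in the highest.

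Gaps that were not filled mostly narrowed, beside a background in which most shared regions widened. Of the 27293 shared regions neither joined nor divided, 70.0% were wider at stage 12, with a median change in width of 29 bp. A region that widens shortens the gap beside it, so some narrowing is expected. How much of the narrowing goes with that widening, or with depth, was not tested. At stage 10 gaps above the median of 112 bp and up to 150 bp, 460 of 673 unfilled gaps were narrower at stage 12 and 197 were wider, with a median change of -10 bp (interquartile range -21 to 3 bp). At gaps over 200 and up to 300 bp, 380 of 541 were narrower and 143 wider, with a median change of -18 bp. At 95 to 100 bp, 17 of 70 were narrower and 48 wider, in a class where a gap could narrow by only a few bases before reaching the shortest gap listed at stage 12.

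Joined regions ranked above other shared regions of the stage 12 list. The authors' top score was given to 96.9% of them, against 89.8% of the 28237 stage 12 regions that overlap exactly 1 stage 10 region. Their best summits stood at a median of 61.3 times the floor, against 45.9 times, with a median fold enrichment of 13.5 against 12.7. A best summit was picked from a mean of 5.00 summits in joined regions, against 3.45 in the others. Best summits were not compared at like width or number of summits. The median width of joined regions, 1049 bp, stood against 698 bp. Width itself makes an overlap with 2 regions possible, and the joined share of overlapping regions was 0.280% at widths up to 459 bp, 6.49% at 720 to 976 bp and 18.2% above 1225 bp. Summits were no denser in joined regions, at a median of 4.62 per kilobase against 4.93. At stage 10 the regions later joined did not rank above others: 59.9% had the top score, against 63.6% of those with 1 partner, and their median width was 387 bp against 593 bp.

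Joined regions were spread over all 18 chromosomes, in numbers from 59 on chromosome 7S to 182 on 1L. Their share of overlapping stage 12 regions ran from 4.73% (3.76% to 5.94%) on 7L to 6.80% (5.90% to 7.81%) on 1L. Xenopus laevis is allotetraploid, with longer (L) and shorter (S) homeologous chromosomes. The share was 5.78% (5.44% to 6.14%) on L and 5.69% (5.30% to 6.11%) on S chromosomes, and L was higher in 5 of 9 pairs. The median gap was 112 bp on both. Another stage 12 region lay within 1 kb of 28.6% of joined regions and of 35.2% of those overlapping 1 stage 10 region. The nearest other joined region lay at a median of 361 kb.

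The joined regions named below are the first 3 by each of 5 measures: number joined, summed gap, gap summits, width ratio and −log10 p of a gap summit. The most stage 10 regions, 4, were joined on chromosome 5L, 53219486 to 53221217 (1732 bp, 7 summits). Its stage 10 regions were 194, 455, 330 and 270 bp wide, with gaps of 98, 270 and 95 bp, none of which held a stage 12 summit. The highest of them, the second from the left, had a pileup of 76.6 floors at stage 12, against 59.0 at stage 10. The second case of 4 was on chromosome 5S, 6226768 to 6227859, where regions of 346, 112, 210 and 114 bp were joined over gaps of 99, 108 and 110 bp, again without a gap summit. There the best summit moved: the third region was highest at stage 12 (50.6 times the floor) and the first at stage 10 (44.5 times). Among joined regions of 3, the highest by −log10 p was on chromosome 1L, 169490117 to 169492027, with 168 floors at stage 12, against 130 at stage 10, and gaps of 97 and 124 bp.

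The widest gap lay on chromosome 9_10L, 79369750 to 79372080. There 1233 bp separated stage 10 regions of 943 and 830 bp, and 5 stage 12 summits lay in the gap at 22.8 to 27.2 times the floor, over local backgrounds near 51 reads. Their fold enrichments were 2.08 to 2.50, against 9.32 at the best summit of the region. The stage 12 region covered 387 bp of the left stage 10 region, which had 35.1 floors at stage 12, against 50.8 at stage 10. The next widest gap, of 750 bp, was on chromosome 6S, 81548912 to 81549920, between regions of 165 and 94 bp. Its 3 gap summits stood at 14.3, 16.8 and 9.15 times the floor, and the middle one was the best of the region. This region also had the largest width ratio, 3.896, and its outer edges were the same at both stages. On chromosome 7S, 66117138 to 66119126, a gap of 736 bp held 2 summits at 11.5 and 12.3 times the floor.

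The gap summits with the highest −log10 p, on chromosomes 2L, 8L and 2S, did not lie in the widest gaps. On chromosome 2L, 132072966 to 132073854, 3 stage 10 regions of 142, 108 and 408 bp were joined, and a gap of only 98 bp held a summit at 45.5 times the floor, with −log10 p of 120.2, the highest of any gap summit. No stage 12 summit was listed in the 108 bp region beside it. On chromosome 8L, 87168530 to 87169860, a gap summit with more reads, 61.3 times the floor over a local background near 51 reads, lay in a gap of 144 bp and had −log10 p of 115.9. The outer 2 of its 3 stage 10 regions stood at 87.8 and 109 times at stage 12, against 24.5 and 30.9 times at stage 10. On chromosome 2S, 69261294 to 69262251, a gap of 415 bp held summits at 13.8 and 31.7 times the floor. Among the regions with the most gap summits, on chromosome 3L, 118888916 to 118890579, a gap of 515 bp held 2 summits at 45.7 and 54.9 times the floor over backgrounds near 74 reads. The remaining large width ratios were 3.22 on chromosome 3L, 77296145 to 77297277, and 3.21 on chromosome 1S, 114573011 to 114574116. In the 1S region the gap held no summit, and most of the stage 12 width of 1106 bp against a span of 446 bp lay outside the stage 10 regions.

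**Figure D5:**
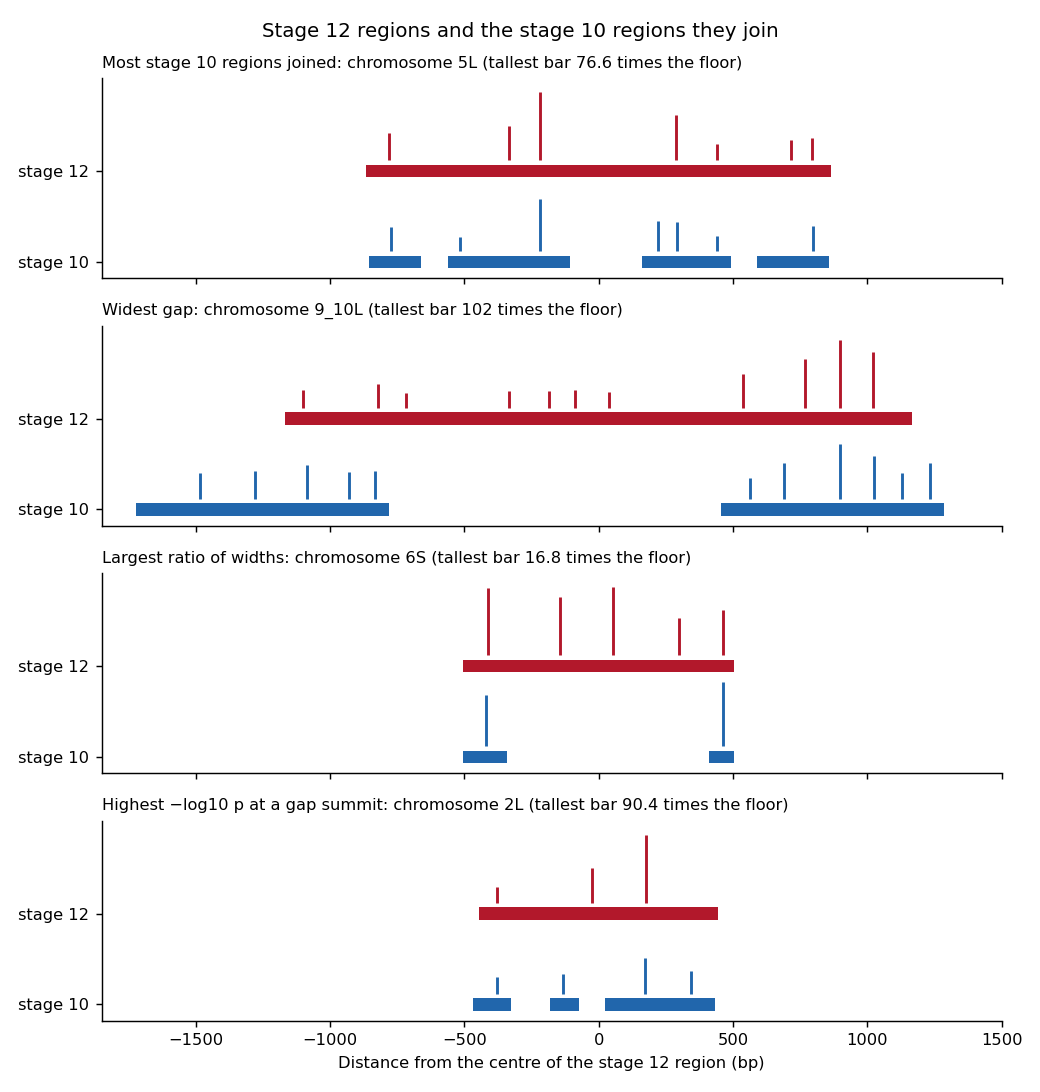
Stage 12 region (red bar) above the stage 10 regions it joins (blue bars) in 4 cases, with summits as vertical lines whose height is the pileup over the list's floor, scaled to the tallest of each panel; the x axis is the distance from the centre of the stage 12 region in bp. The 5L region has no summit in its gaps, the 9_10L region has 5 in a gap of 1233 bp, the 6S region has 3 in a gap of 750 bp, and the 2L region has 1 in a gap of 98 bp.

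At the edge of the rule, the smallest second overlap was 4 bp, on chromosome 1S, 140386547 to 140387049, a region of 503 bp with 1 summit whose stage 10 regions spanned 1435 bp. The next was 17 bp, on chromosome 1L, 166387560 to 166388334. Overlaps that small were rare, with 8 joined regions under 50 bp and a median second overlap of 239 bp. Just outside the rule, the stage 12 regions on chromosome 4S, 98767977 to 98768482, and chromosome 1L, 210608266 to 210609086, overlapped 1 stage 10 region and stopped 4 and 5 bp short of another. In all, 10 regions stopped within 50 bp of a second stage 10 region and 313 within 100 bp.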

How the data were processed

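ATAC-seq was done on 6 libraries of animal caps, 3 at stage 12 and 3 at stage 10, read as paired ends of 100 nucleotides. Per the submitters' processing notes, the build is xenLae2 and bcl2fastq 2.20 was used. The aligner, peak caller, filters and any pooling are not given in the sources used here. The authors deposited 1 list per stage, with 10 columns in narrowPeak order: interval, score, fold enrichment (a ratio), −log10 p, −log10 q (not used) and summit offset. Each row is a summit. The score, fold and −log10 p are the authors' own.

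Rows sharing an interval were joined into 1 region, which took the values of its summit with the highest −log10 p. Overlap was counted from 1 bp. Pileup and local background were solved from fold = (pileup + 1)/(background + 1) and a Poisson upper tail, a form inferred from the values, with a whole-number pileup. No solution within 0.01 was found for 117 summits at stage 12 and 60 at stage 10, and the closest was used. The floor is the most common background of a list. The floor ratio stands for depth only if reads were extended alike at both stages. Each list being 1 sample, no test was run, and depth per library is unknown. The members and lists were chosen with earlier results of these data known. Named regions are the first 3 by each of 5 measures, with ties broken by −log10 p. The scripts were tested on simulated lists. Python 3.11.15, numpy 2.4.6, pandas 2.3.3, scipy 1.17.1 and matplotlib 3.10.9 were used.

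Alternatives changed the overlap required, the sequences included, the score or −log10 p limit, the merging of close intervals and the highest pileups. Merging within 150 bp and equal numbers of regions were added after the data were seen.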

Additional observations from a re-analysis of the deposited data

Results flagged for a closer look

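Regions on unplaced scaffolds lie outside the comparisons above and also held joined regions. There were 140 of them, 3.88% (3.30% to 4.57%) of the 3605 stage 12 regions there that overlap a stage 10 region. Their median gap was 115 bp, and 16 of 147 gaps held a stage 12 summit.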

How the results depend on the processing

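No paired analysis was possible because the lists combine the libraries of a stage and carry no replicate numbers. For the same reason no library was left out. Of 135 values under 9 alternatives, 89 stayed within 1.5 times (counts) or within the counting interval of the reported value, and 46 moved. Moved values are given here, and the cause was not tested.

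With regions at the top score, there were 646 joined and 278 divided regions, a ratio of 2.32, and 3.46% of overlapping regions were joined. In the upper 50% by −log10 p there were 555 and 152, and 3.43% were joined. With intervals within 150 bp merged there were 733 and 202, and 2.60% were joined. With lists of equal length 319 were divided, the ratio was 5.26 and 6.22% were joined. Merging within 100 bp gave a ratio of 4.17 and 5.42% joined, and asking for 50% of the other region gave a ratio of 3.90.

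Joined regions thus outnumbered divided ones under all 9 alternatives, with ratios from 2.32 to 5.26. The median gap was 120 bp after merging within 100 bp and 216 bp within 150 bp, which removes the shorter gaps by construction. Gaps with a summit were then 10.9% and 32.4%, and gap summits 2.55% and 7.79% of all summits. Joined pairs at gaps over 100 and up to 200 bp were 42.9% after merging within 100 bp, against 37.3% as reported. Merging within 150 bp left only gaps over 150 bp in that class. Of its 845 pairs 38.9% were joined, against 16.6% of the 845 pairs at those gaps as reported. Gap summits were 1.79% in the upper 50%. Their pileup over the floor was 20.3 (top score), 20.8 (upper 50%) and 20.2 (merged within 150 bp). The best summit lay in a gap in 0% of joined regions at the top score and in the upper 50%. It lay in the highest stage 10 region in 77.6%, 77.8% and, merged within 150 bp, 78.4%.

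The width ratio to the summed stage 10 width was 1.20 with 50% required, 1.16 at the top score, 1.15 in the upper 50%, 1.20 merged within 100 bp and 1.34 within 150 bp. Divided by the ratio of regions with 1 partner it was 1.15, 1.11, 1.11, 1.14 and 1.27 in that order, against 1.13 as reported. The ratio to the span was 1.02, 1.01 and 1.01 in the first 3.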

Other observations

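The share of stage 10 pairs that were joined did not fall evenly with the gap. In classes of 10 bp it was 21.2% of 260 pairs at gaps over 150 bp and up to 160 bp and 22.5% of 182 pairs up to 170 bp. It was 10.2% of 166 pairs in the next class, up to 180 bp, and 9.56% of 136 pairs up to 190 bp. Between the classes up to 170 bp and up to 180 bp, the change was in gaps without a summit, which numbered 37 and 11. Gaps with a summit numbered 4 and 6 in the same classes. The classes were chosen after the values were seen.

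Gaps with a summit had a small second group near 300 bp. There were 8 in the 10 bp up to 300 bp and 9 in the next 10 bp, against 3 in the 10 bp up to 210 bp and 2 in the next 10 bp. Stage 10 pairs as a whole were about as numerous at these distances, with 116, 116, 96 and 120 pairs. Other classes of 10 bp held 6 gaps with a summit up to 180 bp, 5 up to 200 bp and 3 up to 320 bp. The classes compared were chosen after the values were seen, and such small counts carry a large counting error.

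The share of gaps with a summit was 9.15% over all chromosomes, and its extremes were 5.49% on 5L and 18.9% on 9_10L. These 2 were picked as the lowest and highest values and rest on 86 joined regions on 5L and 94 on 9_10L. The median gap was 113 bp on 5L and 120 bp on 9_10L, and wider gaps held summits more often. On 3L the share was 16.0% with a median gap of 113 bp. Chromosomes were not compared at like gap width, and whether they differ beyond counting error was not tested.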
